A study of Rattus norvegicus with 22 samples.

Results

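The 6 peroxiredoxins (*Prdx1* to *Prdx6*), both thioredoxins (*Txn1* and *Txn2*) and the thioredoxin reductases *Txnrd2* and *Txnrd3* were followed in rat liver. Members were the probes for genes of these names, ignoring case, among the probes that are not array controls. The rule found 10 genes of the 26276 gene names on the array, each with 1 probe of 60 bases out of 30367, and 28 spots on each array. Male Sprague–Dawley rats had eaten a semi-synthetic control diet or the BASE-diet for 3 or 14 months, and liver RNA of each rat was set on its own array. The BASE-diet held 6% salmon fat in place of lard, 8% of a hydrolysed water extract of linden, 8% giant pumpkin puree and 1% of a culture of 2 bacterial strains. The groups were control diet at 3 months (CD 3, 5 rats), BASE-diet at 3 months (BD 3, 5 rats), control diet at 14 months (CD 14, 6 rats) and BASE-diet at 14 months (BD 14, 6 rats). The red dye (Cy5) carried the rat and the green dye (Cy3) a common reference, liver RNA of healthy rats 10 weeks old that were not part of the experiment. This direction follows the sample labels, while the methods assign the green dye to control rats and the red dye to BASE-diet rats. All levels here are log2 ratios of rat to reference, so 0 is the level of the reference and 1 is 2 times that level. No dyes were swapped.

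Peroxiredoxins reduce hydrogen peroxide and organic peroxides with a cysteine that is oxidised in the reaction. In most of them thioredoxin restores that cysteine, and a thioredoxin reductase, a selenium-containing enzyme, restores thioredoxin at the expense of NADPH. The liver holds these enzymes in separate compartments: *Prdx1*, *Prdx2* and *Txn1* act in the cytosol, *Prdx3*, *Txn2* and *Txnrd2* form the chain of the mitochondrial matrix, *Prdx4* works in the endoplasmic reticulum, and *Prdx5* is found in mitochondria, peroxisomes and cytosol. *Prdx6* relies on glutathione instead of thioredoxin, and *Txnrd3* is best known from testis.

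The probes that carry the main results are shown as 5′ to 3′ runs from the array files, because what they can bind bears on the values. The *Prdx1* probe A_44_P398167 lies at chr5:136983425-136984996 on the plus strand of rn4, a span of more than its 60 bases. An unnamed probe, A_44_P342334, lies at chr2:25707088-25707147 on the plus strand, and overlaps the *Prdx1* probe in 56 bases, of which 51 are alike, with a longest run alike of 20. Capitals mark the 5 bases that differ.
*Prdx1* probe A_44_P398167: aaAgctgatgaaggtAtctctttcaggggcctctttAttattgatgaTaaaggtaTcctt
Unnamed probe A_44_P342334: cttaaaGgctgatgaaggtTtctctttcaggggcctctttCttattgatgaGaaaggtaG
The mitochondrial thioredoxin and its reductase went together most closely, and *Txnrd3* gave the largest difference at 14 months, so these 3 probes are shown as well, with no base marked. They lie at chr7:115834342-115843687 on the minus strand (*Txn2*), chr11:84517830-84517889 on the minus strand (*Txnrd2*) and chr4:123768361-123769113 on the plus strand (*Txnrd3*) of rn4.
*Txn2* probe A_44_P130641: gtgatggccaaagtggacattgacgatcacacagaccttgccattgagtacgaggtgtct
*Txnrd2* probe A_64_P160658: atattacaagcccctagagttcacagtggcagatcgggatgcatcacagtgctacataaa
*Txnrd3* probe A_44_P318653: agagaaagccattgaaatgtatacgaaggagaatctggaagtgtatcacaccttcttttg

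All 10 genes passed the filter on dim probes, which 19434 of 30367 probes passed. *Txnrd3* was the exception in brightness: the other 9 genes were well above background in both dyes on every array. No member spot was saturated. Across the arrays, 52.4% to 93.6% of spots were well above background in the rat channel. The control group at 3 months was the most scattered, with a median SD over probes of 0.695 on the log2 scale against 0.358 in BD 3, 0.392 in CD 14 and 0.387 in BD 14. Rat 4 stood farthest out, with an array that had an SD of 1.27 across probes (0.471 to 0.959 on the others) and 9.40% of probes at -2 or lower (at most 3.41% on the others). Its 8 hepatocyte markers, all well above background on every array, had a median of -2.11, from *Cps1* at -3.44 to *Alb* at 0.06. Their summed rat signal on that array was 665289, within the range of 446842 to 1203380 of the CD 3 arrays. That sum was carried mainly by *Alb*, *Ttr* and *Fgb*, at 186283, 211961 and 171496. *Cps1* (170), *Tat* (92.3), *Cyp2e1* (23556) and *Serpina1* (35866) had their lowest rat signal of any array there. Rats 2, 3 and 4 of CD 3 shared 1 slide, named D here, that held no other array, so slide and rat cannot be told apart for them.

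**Figure D1:**
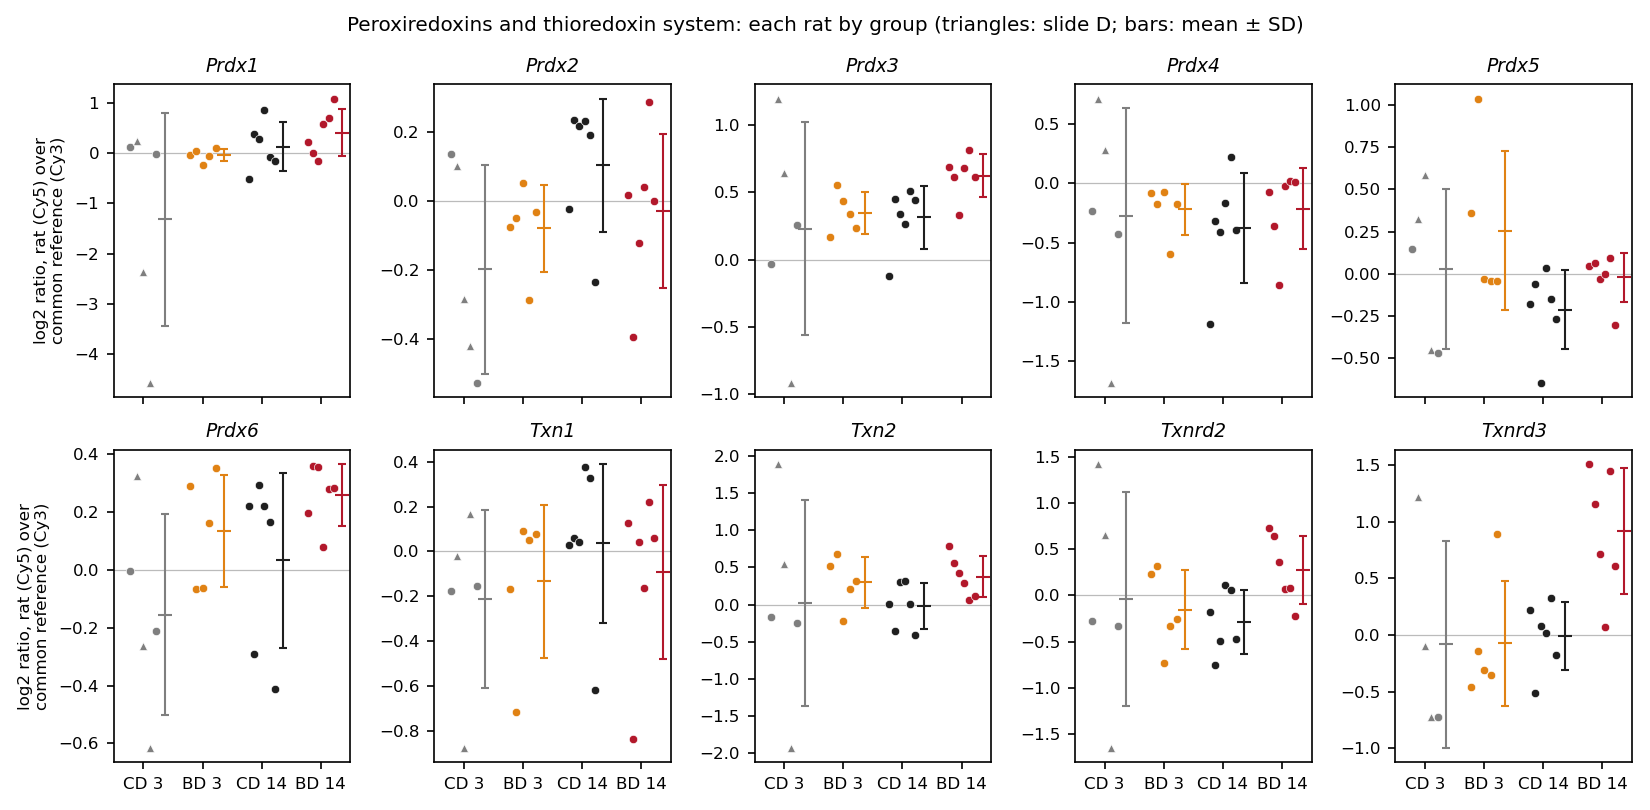
Log2 ratio of rat over common reference for each of the 10 genes, 1 point per rat by group, with triangles for slide D and bars for mean ± SD. The CD 3 group (n = 5, or 4 for *Txnrd3*) reaches -4.58 for *Prdx1*, while *Prdx3* in BD 14 keeps between 0.33 and 0.82.

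No member passed an adjusted p of 0.05 (limma, Benjamini-Hochberg over all 19434 probes tested) in any of 8 tests. For diet at 3 months, diet at 14 months, time on the control diet, time on the BASE-diet and the interaction of diet and time, 0 of 10 members passed, and so did 0% of all probes. For diet averaged over both times 0.00515% of probes passed, for time averaged over both diets 0.221%, and for any difference among the 4 groups 0.0257%, again with 0 members. At an unadjusted p under 0.05 the members numbered 0 for diet at 3 months (7.11% of all probes), 1 for diet at 14 months (4.6%), 1 for time on the control diet (10.1%) and 1 for time on the BASE-diet (7.44%). The interaction had 0 (4.8%), diet averaged over times 0 (7.19%), time averaged over diets 2 (13.6%) and the test among all 4 groups 2 (10.5%). Set against these shares, 1 or 2 of 10 members is no result about the members. The members behind them were *Prdx1* and *Txnrd3*.

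By direction alone, 9 of 10 genes had a higher mean in BD 3 than in CD 3 (53.6% of all probes did) and 8 of 10 a higher mean in BD 14 than in CD 14 (56.3%). With time, 6 of 10 were higher on the control diet (53.4%) and 9 of 10 on the BASE-diet (58.6%). These counts moved with the scaling: with the rat channel alone they were 8, 5, 8 and 4 of 10 in this order, with median-centred arrays 9, 8, 6 and 6, and with slide as a block 7, 7, 6 and 5. Leaving out 1 array turned 16 of the 40 differences between pairs of groups, and moved 32 by a factor over 1.5 or turned them. The median difference over the members was 0.12 for diet at 3 months, against 0.03 over all probes, and 0.25 for diet at 14 months, against 0.05. It was 0.08 for time on the control diet and 0.10 for time on the BASE-diet, against 0.03 and 0.07. In bulk liver RNA, fewer cells of a type and less RNA per cell cannot be told apart.

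**Figure D2:**
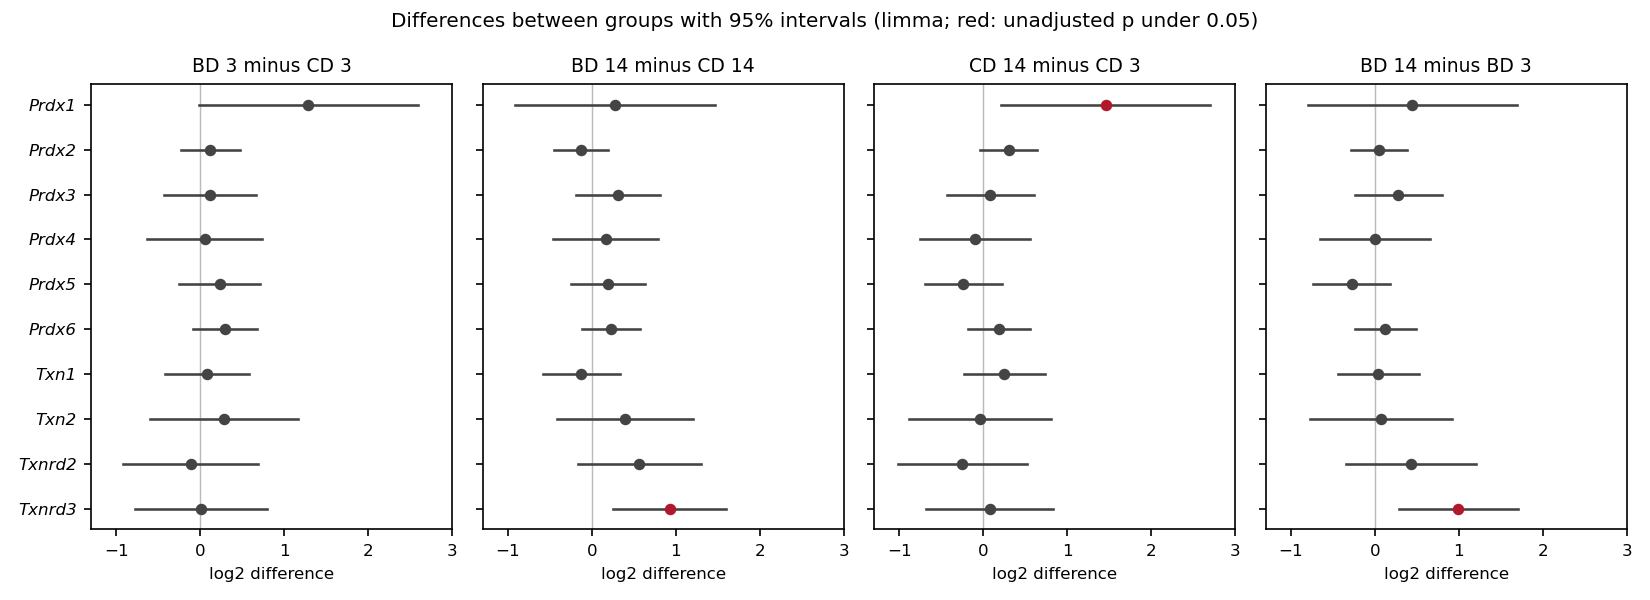
Differences between group means on the log2 scale with 95% intervals from limma, for the 10 genes in 4 comparisons, with red points at an unadjusted p under 0.05. Red points are *Prdx1* in CD 14 minus CD 3 and *Txnrd3* in both comparisons that involve BD 14, and the remaining intervals include 0.

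*Prdx1*, the main cytosolic peroxiredoxin, separated 2 control rats from the other 20. At 3 months on the control diet the ratios were 0.12, 0.25, -2.38, -4.58 and -0.01 in rats 1 to 5. The BD 3 rats had -0.03, 0.04, -0.22, -0.05 and 0.10. Rats 3 and 4 of CD 3 thus lay far below every other rat, and the other 3 lay close to the BASE-diet rats. In CD 14 the ratios were -0.51, 0.40, 0.29, 0.88, -0.07 and -0.16, and in BD 14 they were 0.24, 0.02, -0.15, 0.58, 0.71 and 1.09. The 14-month groups overlapped almost fully. Group means ± SD were -1.32 ± 2.12 (CD 3, n = 5), -0.03 ± 0.12 (BD 3, n = 5), 0.14 ± 0.49 (CD 14, n = 6) and 0.41 ± 0.47 (BD 14, n = 6).

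The CD 3 mean made *Prdx1* 1.29 higher in BD 3 (SE 0.627, 95% interval -0.02 to 2.59, limma adjusted p = 0.710) and 1.46 higher in CD 14 (SE 0.601, interval 0.21 to 2.70, limma adjusted p = 0.411). At 14 months the diets differed by 0.28 (SE 0.573, adjusted p = 0.967), which was 0.14 without rat 6 of BD 14 and 0.43 without rat 4 of CD 14. Averaged over diets, time gave 0.95 (SE 0.425, adjusted p = 0.335). Without rat 4 of CD 3 the first 2 differences became 0.47 and 0.64 and the average over diets 0.54, and without rats 2, 3 and 4, which is all of slide D, they became -0.09 and 0.08. With slide as a block they were -0.17 and -0.08. The only slide with both 3-month groups held 2 BD 3 rats and 1 CD 3 rat and gave -0.12, and the only slide with both control groups held 1 rat of each and gave -0.15. The sign of the *Prdx1* diet difference thus turned with the arrays of slide D.

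Both low values were low in the rat channel. The *Prdx1* signal in Cy5 was 706 on rat 4 and 4502 on rat 3, against 6322 to 26270 on the other 20 arrays. In Cy3 the reference read 16898 and 23406 on these arrays, against 5805 to 22058 on the others. The duplicate spots of the *Prdx1* probe differed with an SD of 0.0403, and the rats of a group with an SD 26.4 times that. Among the 19434 probes tested, 32 were at or below the *Prdx1* ratio on rat 4, itself included, and 377 on rat 3. The SD of *Prdx1* within CD 3 was larger than that of 99.5% of probes. On slide D the reference was also bright on rat 2, at 22058 with the rat channel at 26270, which gave a ratio of 0.25.

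The unnamed near-copy followed *Prdx1* on every array. Pearson's r was 0.999 over the 22 arrays and 0.991 over the 19 without slide D, where both probes share libraries, reference and most of their bases. The largest difference between their ratios was 0.135, and the median 0.0376. Whether these probes, with 51 of 56 overlapping bases alike, bind the same transcripts was not tested, so the second is not counted as an independent reading of *Prdx1*.

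**Figure D3:**
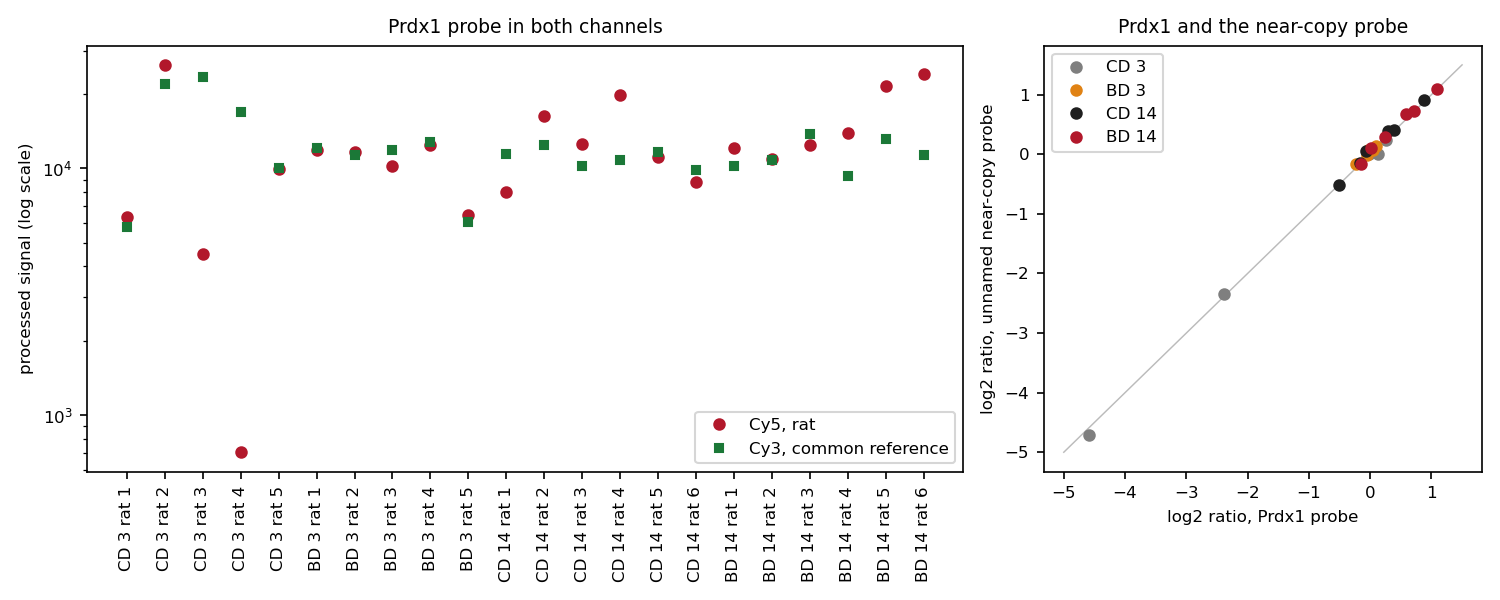
Left, processed signal of the *Prdx1* probe on each array (log axis) in the rat channel, Cy5, and the reference channel, Cy3; right, log2 ratio of the unnamed near-copy probe against that of *Prdx1*, 1 point per array. The rat channel drops to 4502 and 706 on rats 3 and 4 of CD 3, and all 22 points on the right lie near the line of equal values.

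Kupffer cell and macrophage markers, and most hepatocyte, endothelial and leukocyte markers, had higher means than in CD 3 in both comparisons in which the *Prdx1* mean did. For time on the control diet, 7 of 7 Kupffer cell and macrophage markers were higher in CD 14 than in CD 3, 5 of them at an unadjusted p under 0.05 (10.1% of all probes) and 0 after adjustment, with a median difference of 1.19. For diet at 3 months, 7 of 7 were higher in BD 3 than in CD 3, with a median of 0.69 and 0 at an unadjusted p under 0.05 (7.11% of all probes). At 14 months they ran apart, with *Prdx1* higher in BD 14 by 0.28 and 6 of 7 markers lower than in CD 14, with a median of -0.18. Within CD 3 the median ratio of these markers was -1.90, -2.32, -2.90, -1.20 and -0.54, so rat 4, the lowest in *Prdx1*, was above rats 1, 2 and 3. The other lists were mixed for time on the control diet. Of 4 leukocyte markers tested, 3 were higher, 2 of them past the same unadjusted threshold, with a median of 0.74. Of 4 endothelial markers 3 were higher and 1 was past it, *Lyve1* at 1.53 (limma adjusted p = 0.226), while *Cdh5* was at -0.36. Of 6 stellate cell markers 3 were higher and 3 lower, and 0 were past it. Of 8 hepatocyte markers 6 were higher and 1 was past it, with a median of 0.26. Higher too were 4 of 5 red cell and 2 of 3 bile duct markers and the 1 pancreas marker tested. For diet at 3 months (53.6% of all probes higher), 6 of 8 hepatocyte markers were higher, with a median of 0.34. So were 4 of 4 endothelial, 3 of 4 leukocyte, 4 of 6 stellate cell, 1 of 3 bile duct, 1 of 1 pancreas and 0 of 5 red cell markers. The summed rat signal of the macrophage markers ran from 2735 to 9412 in CD 3 and from 5567 to 40473 in CD 14. The part of these cell types in the *Prdx1* difference was not tested.

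*Prdx2*, the peroxiredoxin abundant in red cells, was the steadiest of the family by the SD between rats pooled over the groups (0.220). In BD 14 *Prdx3*, *Prdx5* and *Prdx6* had smaller SDs (0.162, 0.145 and 0.106 against 0.224), and in BD 3 *Prdx1* did (0.123 against 0.126). Its ratios were 0.14, 0.10, -0.28, -0.42 and -0.53 in CD 3 and -0.08, -0.05, 0.05, -0.29 and -0.03 in BD 3. They were -0.02, 0.24, 0.22, 0.23, 0.19 and -0.24 in CD 14 and 0.02, -0.40, -0.12, 0.04, 0.29 and -0.00 in BD 14. The 4 groups overlapped. Group means ± SD were -0.20 ± 0.30, -0.08 ± 0.13, 0.10 ± 0.19 and -0.03 ± 0.22 in that order. The interval of the diet difference was -0.23 to 0.47 at 3 months and -0.45 to 0.19 at 14 months, so a change by a factor of 2 lay outside both. The difference at 3 months, 0.12, was 0.037 without rat 5 of CD 3 and 0.20 without rat 1. Time on the control diet gave 0.30 (SE 0.162, limma adjusted p = 0.549). Red cell markers, all 5 tested, were lower in BD 3 than in CD 3, 2 of them at an unadjusted p under 0.05 (7.11% of all probes) and 0 after adjustment, while the *Prdx2* mean was higher there. At 14 months all 5 were lower in BD 14 than in CD 14, with a median of -0.35 and 0 at that threshold, and *Prdx2* was at -0.13.

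*Txn1*, the cytosolic thioredoxin, was read by 10 spots and gave the same value from spot to spot (SD 0.0277). Its ratios in CD 3 were -0.18, -0.02, -0.88, 0.17 and -0.16, and in BD 3 -0.17, -0.71, 0.09, 0.05 and 0.08. In CD 14 they were 0.03, 0.06, 0.04, 0.38, 0.33 and -0.62, and in BD 14 0.13, -0.84, 0.04, -0.16, 0.22 and 0.06. Each group held 1 rat that stood apart below the rest. On these 4 arrays the reference channel was the brightest of its group, with Cy3 signals of 28580, 23401, 22207 and 21909 against group medians of 16931, 14155, 16418 and 13363. The rat channel there read 15562, 14268, 14492 and 12260, within the range of the other rats of each group. The common reference is the same RNA on all arrays, but these signals are not scaled between arrays. On rat 6 of CD 14 the Cy3 signals of *Prdx2* (7764), *Prdx5* (18694), *Prdx6* (7687) and *Txn2* (4201) were also the brightest of the group. The part of each channel in the dips of *Txn1* was not tested. No *Txn1* difference passed the test, the largest being 0.25 for time on the control diet (SE 0.232, limma adjusted p = 0.775). It was 0.083 without rat 3 of CD 3, -0.38 with slide as a block and -0.46 on the 1 slide with both control groups.

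The mitochondrial chain of *Prdx3*, *Txn2* and *Txnrd2* had its highest mean ratios in BD 14, though not its highest median rat signal before scaling between arrays. *Prdx3*, the matrix peroxiredoxin, was 0.69, 0.61, 0.33, 0.68, 0.82 and 0.61 in BD 14 and -0.13, 0.45, 0.34, 0.26, 0.51 and 0.44 in CD 14. *Txn2*, which reduces it, was 0.78, 0.56, 0.42, 0.30, 0.06 and 0.11 in BD 14 and 0.01, -0.35, 0.30, 0.32, 0.01 and -0.41 in CD 14. *Txnrd2*, which reduces *Txn2*, was 0.73, 0.64, 0.36, 0.07, 0.08 and -0.22 in BD 14 and -0.18, -0.76, -0.49, 0.12, 0.06 and -0.47 in CD 14. In all 3 genes most BD 14 rats lay above most CD 14 rats, but the groups overlapped in each. The differences were 0.31 for *Prdx3* (SE 0.239), 0.39 for *Txn2* (SE 0.389) and 0.56 for *Txnrd2* (SE 0.353), each with a limma adjusted p of 0.952. On the slide that held all 6 BD 14 rats and 2 CD 14 rats they were 0.24, 0.21 and 0.19. In the rat channel the median Cy5 signal of BD 14 was below that of CD 14 for *Prdx3* (2151 against 2229), *Txn2* (2360 against 2487) and *Txnrd2* (263 against 314). The reference was also dimmer in BD 14, with median Cy3 signals of 1323 against 1688, 1752 against 2291 and 229 against 426. These signals are not scaled between arrays. The median rat signal over all spots was 59.7 to 83.3 on BD 14 arrays and 67.3 to 165 on CD 14 arrays. With the rat channel alone, scaled between arrays, the differences were 0.12 for *Prdx3*, -0.00027 for *Txn2* and 0.085 for *Txnrd2*. On that scale BD 14 was the highest group for *Prdx3*, and BD 3 for *Txn2* and *Txnrd2*.

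At 3 months the same genes were spread widest in CD 3. There *Txn2* was -0.17, 1.89, 0.55, -1.93 and -0.25 and *Txnrd2* -0.27, 1.42, 0.65, -1.65 and -0.33, with *Prdx3* at -0.04, 1.20, 0.65, -0.92 and 0.26. Rat 2 was the highest and rat 4 the lowest for all 3 genes. The BD 3 rats lay between these ends, at 0.51, 0.67, -0.22, 0.22 and 0.31 for *Txn2*, 0.23, 0.31, -0.73, -0.33 and -0.25 for *Txnrd2*, and 0.17, 0.56, 0.44, 0.34 and 0.23 for *Prdx3*. The SD of *Txn2* was 1.39 in CD 3 and 0.34 in BD 3, and that of *Txnrd2* was 1.16 and 0.43. Both channels took part: *Txn2* read 2866 in Cy5 and 774 in Cy3 on rat 2, and 497 and 1897 on rat 4. The diet differences at 3 months were 0.12, 0.28 and -0.12 for *Prdx3*, *Txn2* and *Txnrd2*, each with a 95% interval that included 0. Leaving out rat 4 turned the first 2 to -0.17 and -0.21, and leaving out rat 2 turned the third to 0.25.

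*Txn2* and *Txnrd2* went together across rats. Their ratios had a Pearson's r of 0.923 over 22 arrays and 0.823 over the 19 without slide D, the highest of the 45 pairs of members in both sets. *Prdx3* with *Txn2* had 0.792, which was 0.247 without slide D, and *Prdx3* with *Txnrd2* 0.746 and 0.317. The link of *Prdx3* to the other two thus rested mostly on 3 arrays. The median of the 45 pairs was 0.426 (from -0.486 to 0.923), and 0.188 without slide D (from -0.371 to 0.823). These are descriptions: all genes of an array share its library, its reference hybridisation and its dye normalisation.

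**Figure D4:**
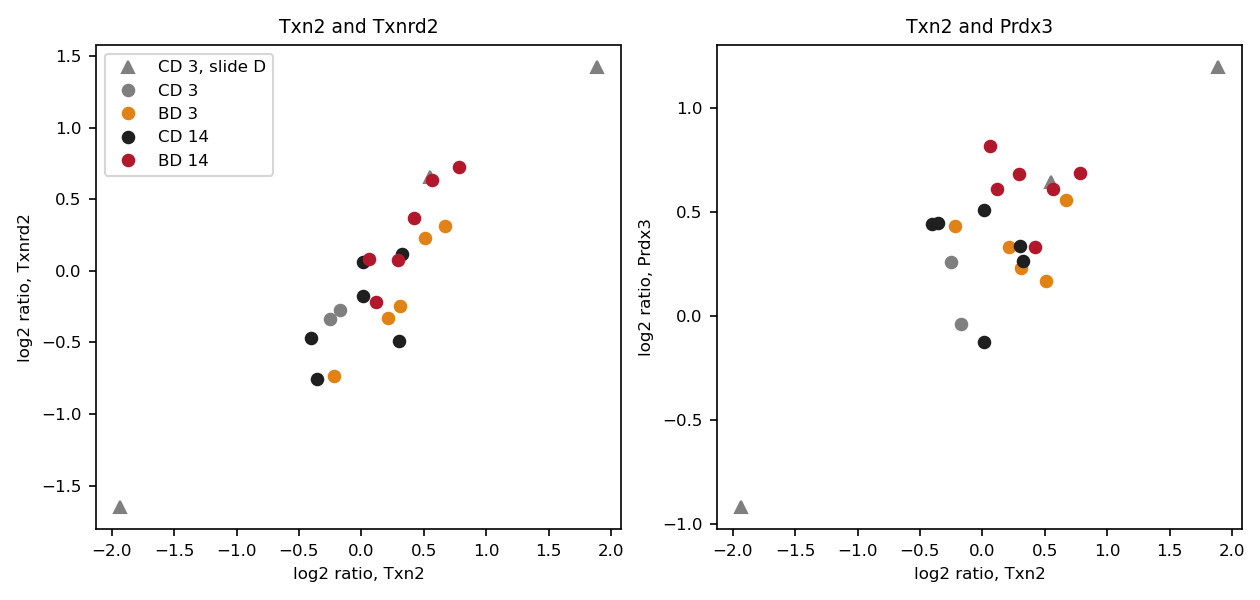
Log2 ratio of *Txnrd2* (left) and *Prdx3* (right) against that of *Txn2*, 1 point per rat coloured by group, with triangles for slide D. On the left the points follow 1 line with and without slide D (r = 0.923 and 0.823), and on the right they do so mainly through the triangles (r = 0.792 and 0.247).

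*Txnrd3*, a reductase that also carries a glutaredoxin domain, had the largest difference at 14 months, in the dimmest probe of the set. The BD 14 ratios were 1.51, 1.16, 0.71, 0.07, 1.45 and 0.61, and those of CD 14 were 0.22, -0.51, 0.08, 0.02, 0.33 and -0.18. In all, 5 of the 6 BD 14 rats lay above every CD 14 rat. The BD 3 rats had -0.46, -0.14, -0.31, -0.35 and 0.89, and the CD 3 rats 2 to 5 had 1.22, -0.10, -0.73 and -0.73. Rat 1 of CD 3 had no value, since both spots were marked as non-uniform, and the fit dropped it. Means ± SD were 0.92 ± 0.56 (BD 14, n = 6), -0.01 ± 0.30 (CD 14, n = 6), -0.08 ± 0.55 (BD 3, n = 5) and -0.08 ± 0.92 (CD 3, n = 4).

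BD 14 was 0.93 above CD 14 (SE 0.324, 95% interval 0.25 to 1.60) and 0.99 above BD 3 (SE 0.340, interval 0.29 to 1.70). After adjustment over all probes the limma p was 0.931 and 0.483. At 3 months the diets differed by 0.01 (SE 0.376), and the interaction of diet and time was 0.92 (limma adjusted p = 0.999). Leaving out any 1 array kept the first 2 differences between 0.81 and 1.24. Within the slide that held all BD 14 rats and 2 CD 14 rats, the diet difference was 0.75. The diet difference at 14 months was no longer at an unadjusted p under 0.05 with slide as a block. No slide held both BASE-diet groups. With slide as a block, which links them through the CD 14 rats on both slides, the *Txnrd3* difference between BD 14 and BD 3 was 0.60, no longer at an unadjusted p under 0.05.

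Over the arrays of all slides, the *Txnrd3* difference was seen in the reference channel and not in the rat channel. The median Cy5 signal of the CD 3 arrays was 12.1, that of BD 3 24.3, that of CD 14 32.2 and that of BD 14 21.5, so BD 14 was not the brightest group. The median Cy3 signal was 9.69, 30.6, 36.8 and 11.1 in the same order. Cy3 was well above background on 2 of 5, 5 of 5, 4 of 6 and 1 of 6 arrays. In BD 14 the denominator of the ratio was therefore mostly at background. On the slide that held all BD 14 rats, Cy5 read 29.4, 20.5, 13.9, 18.8, 32.5 and 22.5 in BD 14 and 15.1 and 17.4 in CD 14. Cy3 there read 10.3, 9.15, 8.48, 17.9, 11.9 and 14.8 in BD 14 and 14.9 and 13.8 in CD 14. Within that slide all BD 14 rats but rat 3 thus lay above the CD 14 rats in the rat channel. With the rat channel alone the difference was -0.06 between the diets and 0.03 between the times, and with a normexp background it was 0.12 and 0.12. Duplicate spots of *Txnrd3* differed with an SD of 0.475 and rats with an SD of 0.581, a factor of 1.22. For the other 9 genes that factor was between 4.53 (*Txnrd2*) and 26.4 (*Prdx1*).

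**Figure D5:**
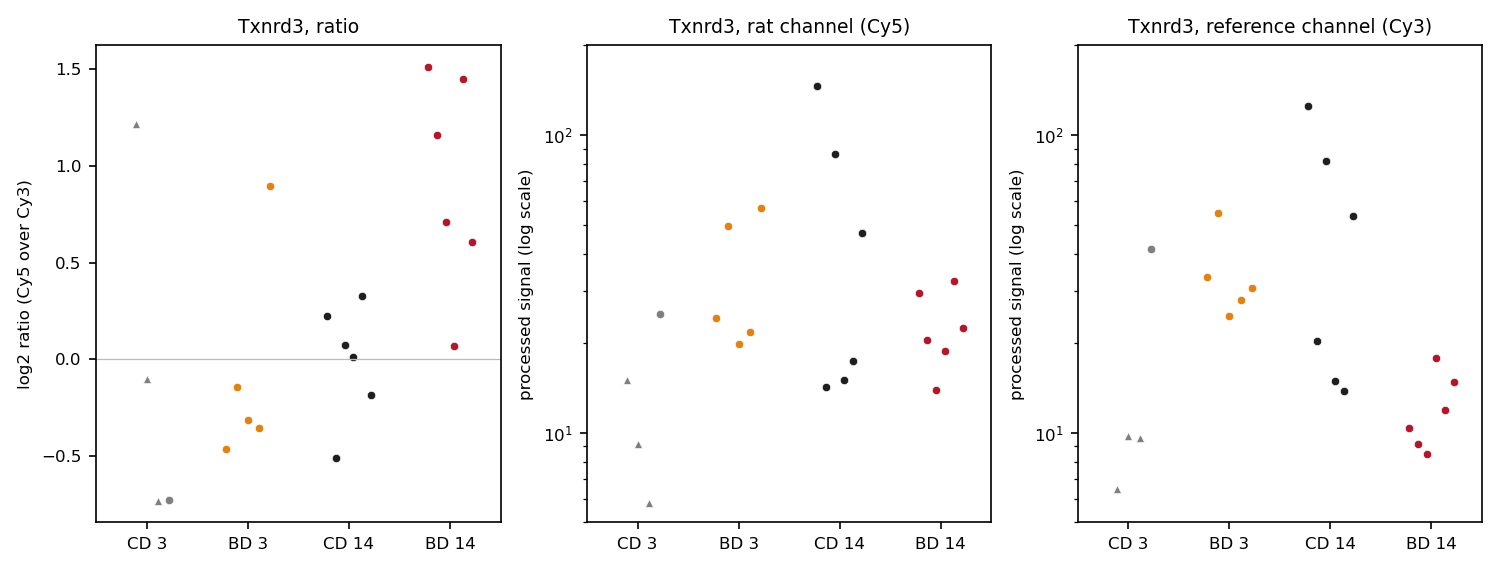
*Txnrd3* by group, 1 point per rat with triangles for slide D: log2 ratio (left), processed signal of the rat channel (middle) and of the reference channel (right), both on log axes. Over all slides, BD 14 stands high in the ratio, not in the rat channel (median 21.5 against 32.2 in CD 14), and low in the reference channel (median 11.1 against 36.8).

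*Prdx4*, the peroxiredoxin of the endoplasmic reticulum, had group means of -0.27 ± 0.91 (CD 3), -0.22 ± 0.22 (BD 3), -0.38 ± 0.46 (CD 14) and -0.21 ± 0.34 (BD 14). All 4 means lay below the reference. The lowest ratios were -1.68 in rat 4 of CD 3 and -1.19 in rat 1 of CD 14, and the highest 0.71 in rat 2 of CD 3. The diet difference was 0.05 at 3 months (95% interval -0.63 to 0.74) and 0.16 at 14 months (-0.46 to 0.79), which was 0.00023 without rat 1 of CD 14. Both turned, the first to -0.30 without rat 4 of CD 3 and the second to -0.24 with slide as a block and on the slide that held both groups.

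*Prdx5*, shared between mitochondria, peroxisomes and cytosol, ranged from -0.47 to 0.59 in CD 3 and from -0.05 to 1.04 in BD 3 at 3 months, and from -0.65 to 0.03 in CD 14 and from -0.30 to 0.09 in BD 14 at 14 months. The 4 means, in the same sequence, were 0.03 ± 0.47, 0.26 ± 0.47, -0.21 ± 0.24 and -0.02 ± 0.15. The difference with time was -0.24 (SE 0.220) on the control diet and -0.28 (SE 0.220) on the BASE-diet, with limma adjusted p-values of 0.770 and 0.789. Neither difference exceeded the spread between rats. On the control diet it turned to 0.25 with slide as a block and was 0.20 on the 1 slide with both control groups, and without rat 3 of CD 3 it was -0.099. On the BASE-diet it was -0.081 without rat 2 of BD 3.

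*Prdx6*, the glutathione-dependent peroxiredoxin, had a higher mean ratio on the BASE-diet at both times. Its ratios were -0.00, 0.32, -0.26, -0.62 and -0.21 in CD 3 and 0.29, -0.07, -0.06, 0.16 and 0.35 in BD 3. At 14 months they were 0.22, -0.29, 0.30, 0.22, 0.16 and -0.41 in CD 14 and 0.20, 0.36, 0.36, 0.08, 0.28 and 0.29 in BD 14. All 6 BD 14 rats were above 0, with the smallest SD of any group at 0.11, yet 4 CD 14 rats lay in the same range. Averaged over both times the diets differed by 0.26 (SE 0.125, limma adjusted p = 0.686), from 0.29 at 3 months and 0.23 at 14 months. With the rat channel alone the 14-month difference was -0.025, and with slide as a block the 2 differences were 0.029 and 0.067. Leaving out rat 4 of CD 3 lowered the first to 0.17, and leaving out rat 6 of CD 14 the second to 0.14. The *Prdx6* probe shares at least 24 bases with a probe for a predicted gene similar to *Prdx6*, and the ratios of these probes had an r of 0.773 over 22 arrays, so signal from one gene on the probe of the other cannot be told apart.

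Ordered by level, BD 14 was the highest group for *Prdx1*, *Prdx3*, *Prdx4*, *Prdx6*, *Txn2*, *Txnrd2* and *Txnrd3*. CD 14 was the highest for *Prdx2* and *Txn1*, and BD 3 for *Prdx5*. Neighbouring means in these orders lay within the larger of their SDs, except BD 14 above its neighbour for *Txnrd3* and *Prdx3*. The order depended on the scaling: BD 14 was the highest group for 7 of 10 genes on the ratios, for 3 with the rat channel alone (*Prdx1*, *Prdx3* and *Prdx4*) and for 3 with slide as a block (*Prdx3*, *Txnrd2* and *Txnrd3*).

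The partner genes of the system came from lists of 36 genes, of which 33 were on the array and tested. None passed the adjusted test in any comparison, and at an unadjusted p under 0.05 there was 1 for diet at 3 months (7.11% of all probes), 0 for diet at 14 months (4.6%), 3 for time on the control diet (10.1%) and 0 for time on the BASE-diet (7.44%), counts no higher than those shares of 33. There were 2 for diet averaged over times (7.19%), *Txnrd1* and the methionine sulfoxide reductase *Msra*, 1 for time averaged over diets (13.6%) and 1 for any difference among the groups (10.5%), *Txnrd1* in both, and 0 for the interaction (4.8%); *Msra* was named after its values were seen. The genes behind the counts between pairs of groups are given as values only. The brighter of 2 probes for *Txnrd1*, the cytosolic thioredoxin reductase, was 1.35 higher in BD 3 than in CD 3 (SE 0.505, limma adjusted p = 0.540) and 1.16 higher in CD 14 than in CD 3 (SE 0.483, adjusted p = 0.416). Its second probe gave -0.49 (SE 0.458) and -0.36 (SE 0.438) for these comparisons, with adjusted p-values of 0.880 and 0.845, so the probes disagreed in direction. The CD 3 ratios were -0.94, -0.39, -1.82, -3.50 and 0.14 on the first *Txnrd1* probe, with rats 3 and 4 the lowest, and -1.67, 0.63, 0.25, -1.18 and 0.39 on the second, with rats 1 and 4 the lowest. Without slide D the differences of the first probe were 0.45 and 0.26, and with slide as a block 0.08 and 0.07. The other 2 for time on the control diet were *Glrx5*, a mitochondrial glutaredoxin, at 0.75 (adjusted p = 0.442), which was 0.30 without rat 4 of CD 3, and *Gstp1*, the glutathione transferase that serves *Prdx6*, at 0.60 (adjusted p = 0.474), which turned to -0.21 without slide D.

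Sulfiredoxin *Srxn1*, which repairs overoxidised peroxiredoxins, ran the other way in CD 3, with ratios of -0.53, -0.32, 1.07, 1.01 and -0.18. Rats 3 and 4 were its highest. BD 3 was -0.30 against CD 3 (SE 0.362, limma adjusted p = 0.909), which turned to 0.26 without slide D and 0.48 with slide as a block. The thioredoxin inhibitor *Txnip* was -1.94, -0.84, -1.42, 0.46 and 0.27 in CD 3, with rat 4 the highest, and differed by 0.20 with diet at 3 months (adjusted p = 0.950), or -0.29 with the rat channel alone. Glutathione reductase *Gsr* was -0.63, -0.61, -1.07, -2.19 and -0.01 in CD 3, with rat 4 the lowest, and differed by 0.75 (adjusted p = 0.763), or 0.16 without slide D. Over the 33 partners, 19 were higher in BD 3 than in CD 3 (53.6% of all probes) and 19 in BD 14 than in CD 14 (56.3%), with medians of 0.05 and 0.03.

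The named genes whose ratios followed each member most closely across the 22 arrays were *Capza2* for *Prdx1* (r = 0.951), *Mtor* for *Prdx3* (0.924), *Tmem205* for *Prdx5* (0.817), *Gnb2* for *Prdx6* (0.841), *Gins1* for *Txn1* (0.904), *Tmem259* for *Txn2* (0.975), *Alg12* for *Txnrd2* (0.956) and, over 21 arrays, *Rai1* for *Txnrd3* (0.795). For *Prdx2* and *Prdx4* they were the uncharacterised genes LOC685203 (0.830) and LOC689741 (0.902). The search took the brightest tested probe of each of 17100 names, leaving out probes with a missing value. Unnamed probes ranked higher for *Prdx1* (0.999), *Prdx4* (0.918), *Prdx6* (0.843) and *Txnrd3* (0.880). These r values are thus picked as the highest of many, and they share the arrays of slide D.

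Promoters were available from RefSeq (GRCr8, 250 bases before to 50 after the start of the gene) for 9 of 10 members. The letters TGACNNNGC, searched on both strands, were found in 3 of them (*Prdx1*, *Prdx4* and *Prdx5*), and in 12.1% of 33469 promoters of the same length. This motif is that of antioxidant response elements, and a match is no evidence of binding.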

How the data were processed

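Liver RNA of 22 rats was hybridised to 2-colour Agilent arrays, 1 rat per array, on 5 slides. Per the file headers and the labels, the authors extracted each spot with Agilent Feature Extraction (10.7.3.1 in the submitters' processing notes; the file headers name a later version), which subtracted background and normalised the dyes by Lowess; probes carry rn4 positions. The deposited scanner tables give the log10 ratio of Cy5 over Cy3 and the intensity of each dye, and a deposited table of log2 values from the authors covers a selected set of probes, among the members *Txnrd3* alone. Here the log10 ratios were turned into log2, non-uniform spots were left out, and spots of a probe were averaged. Testing was limited to probes for which 1 or more groups had, on each of their arrays, a share of 0.5 or more of the spots clearly brighter than background (the scanner's own flag) in the rat channel. The 4 group means were fitted together with limma 3.58.1 (R 4.3.3), and p-values of the 19434 probes were adjusted by Benjamini-Hochberg. Replicates are separate rats, and the number of arrays limits the precision. On simulated data, between 23% and 33% of probes changed by 1 on the log2 scale were recovered, and between 76% and 91% of those changed by 2. Promoters came from RefSeq. The members and lists were chosen with earlier results of these data known; named are all members, *Txnrd1*, *Srxn1*, *Txnip*, *Gsr*, *Gstp1* and partners at an unadjusted p under 0.05 in a comparison of 1 group with another. The alternatives covered background correction, centring, filters, weights, slide and replicate blocks, the methods' ANOVA with Tukey's test, and each array left out.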

Additional observations from a re-analysis of the deposited data

Results flagged for a closer look

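In 40 groups of members, 5 held a rat whose gap to its nearest neighbour took up most of the range of its group, and chance gives about 1 in 20 such groups. They were *Prdx4* in rat 4 of BD 3 (-0.60), *Prdx5* in rat 6 of BD 14 (-0.30), *Txn1* in rat 6 of CD 14 (-0.62), *Txn1* in rat 2 of BD 14 (-0.84) and *Txnrd3* in rat 5 of BD 3 (0.89). For both *Txn1* rats the reference signal was the brightest of the group.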

How the results depend on the processing

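No member passed the adjusted test under any of the alternatives run; the lowest adjusted p was 0.113, and 0.0785 with 1 array left out. Of 719 values of single genes, 666 kept their direction and 53 turned, and with 1 array left out 1109 of 1144 kept it and 35 turned. Leaving out slide D and leaving out arrays with over 1% non-uniform spots were chosen after seeing the data. The number of members at an unadjusted p under 0.05 moved as follows, with the share of all probes at that threshold in brackets beside counts that rose. For diet at 3 months (0) it was 2 with normexp (8.34%), 1 with Cy5 alone (15.2%) and 1 without the non-uniform arrays (11.8%). For diet at 14 months (1) it was 0 with normexp, the strict filter, slide as a block and Tukey's test, 3 with array weights (10.8%), 4 with only the groups compared (10.1%) and 4 without slide D (9.7%). For time on the control diet (1) it was 2 with normexp (10.9%), array weights (6.13%) or without the non-uniform arrays (11.6%), and 0 with slide as a block or random block, only the groups compared, without slide D or by Tukey's test. For time on the BASE-diet (1) it was 0 with normexp, the strict filter, slide as a block and Tukey's test. For the interaction (0) it was 1 with non-uniform spots kept (4.74%) or array weights (6.97%). For diet averaged over times (0) it was 1 with normexp (8.19%), no filter (5.97%), the strict filter (7.8%), array weights (5.84%), the intensity trend (7.24%) or without the non-uniform arrays (10.9%), and 3 without slide D (12.6%). For time averaged over diets (2) it was 1 with normexp, Cy5 alone, the strict filter, non-uniform spots kept, without slide D or without the non-uniform arrays, and 0 with either slide block. For any difference (2) it was 1 with normexp, median-centred arrays, the strict filter, non-uniform spots kept and the ANOVA, and 0 with Cy5 alone and either slide block. Over the limma alternatives that share ran from 4.09% to 15.2%, 2.75% to 10.8%, 6.02% to 12.6%, 2.8% to 15.3%, 2.58% to 11.1%, 5.84% to 13.1%, 3.02% to 19.5% and 4.87% to 16.1% for the 8 tests in this order, and with Tukey's test it was 2.08%, 0.952%, 3.11% and 2.16% for the first 4. With 1 array left out, these counts ran from 0 to 3, 1 to 1, 0 to 2, 1 to 1, 0 to 2, 0 to 5, 0 to 2 and 0 to 3 in this order. The 5, and the 3 for diet at 3 months and for any difference, came without rat 2 of CD 3, which gave 15%, 12.7% and 16.3% of all probes. The cause of these moves was not tested.

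Differences that turned with Cy5 alone were, for diet at 3 months, *Txnrd2* 0.33, *Txnip* -0.29, *Txn1* -0.0027 and *Prdx2* -0.019; for diet at 14 months, *Txnrd3* -0.060, *Prdx6* -0.025 and *Txn2* -0.00027; for time on the control diet, *Txnrd2* 0.15 and *Txn2* 0.40; and for time on the BASE-diet, *Prdx6* -0.15, *Txnrd2* -0.091, *Txn2* -0.27, *Txn1* -0.069 and *Prdx2* -0.14. With slide as a block they were, for diet at 3 months, *Txnrd2* 0.31, *Txn1* -0.32, *Prdx1* -0.17, *Srxn1* 0.48 and *Prdx2* -0.11; for diet at 14 months, *Prdx4* -0.24; for time on the control diet, *Txn1* -0.38, *Txnrd2* 0.17, *Prdx6* -0.085, *Prdx1* -0.078, *Prdx5* 0.25 and *Txn2* 0.23; and for time on the BASE-diet, *Prdx6* -0.048, *Prdx4* -0.55, *Txn2* -0.037 and *Txn1* -0.50. With slide as a random block, *Prdx4* -0.14 and *Txn1* -0.035 turned for time on the BASE-diet, and *Txn2* 0.023 for time on the control diet. Without slide D, *Txnrd2* 0.15, *Prdx1* -0.087 and *Srxn1* 0.26 turned for diet at 3 months, and *Txnrd2* 0.016, *Gstp1* -0.21 and *Txn2* 0.19 for time on the control diet. Array weights turned *Prdx4* -0.16, *Prdx3* -0.11 and *Txnrd3* -0.032 for diet at 3 months and *Prdx3* -0.15 for time on the control diet. Median centring turned *Prdx4* -0.053, *Txn1* -0.018 and *Prdx2* -0.0090 for time on the BASE-diet. Keeping non-uniform spots turned *Txnrd3* -0.25 for time on the control diet and -0.32 for diet at 3 months. Without the non-uniform arrays, *Txnip* -0.12 turned for diet at 3 months and *Prdx4* 0.067 for time on the control diet.

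Replicate numbers in the labels do not pair the rats: the deviations of 31 same-numbered pairs correlated between -0.27 and 0.29 (median -0.01; -0.03 for other pairs). With the replicate block, *Txnrd3* for diet at 3 months was -0.019, *Prdx4* for time on the BASE-diet -0.015, *Txn2* for time on the control diet 0.028, *Prdx1* for time on the control diet 1.42 and *Txnrd3* for diet at 14 months 0.93; members at an unadjusted p under 0.05 numbered 0 for time averaged over diets and 1 for any difference.

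With 1 array left out, the ranges that crossed 0 were, for diet at 3 months, *Prdx3* -0.17 to 0.36, *Prdx4* -0.30 to 0.30, *Txn1* -0.086 to 0.23, *Txn2* -0.21 to 0.75, *Txnrd2* -0.52 to 0.25, *Txnrd3* -0.23 to 0.44 and *Txnip* -0.12 to 0.49; for diet at 14 months, *Txn1* -0.26 to 0.021; for time on the control diet, *Prdx3* -0.20 to 0.33, *Prdx4* -0.46 to 0.14, *Txn2* -0.52 to 0.43, *Txnrd2* -0.65 to 0.11 and *Txnrd3* -0.14 to 0.51; and for time on the BASE-diet, *Prdx2* -0.013 to 0.12, *Prdx4* -0.088 to 0.13, *Txn1* -0.10 to 0.19 and *Txn2* -0.054 to 0.17. Another probe per gene could not be tried, since each member has 1. The deposited log2 values gave *Txnrd3* the same differences of 0.93 and 0.99 for diet at 14 months and time on the BASE-diet. Dim signal limits the readings of *Txnrd3*.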
